A study of Mus musculus with 12 samples.

Results

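Ulk4 was the protein-coding mouse gene with the most listed binding regions of FLAG-tagged Zscan4, and its regions were examined one by one. They were chosen as all regions with a midpoint inside the annotated body of Ulk4 (mm10, chromosome 9, 120964454 to 121286159, 322 kb) or within 100 kb of it. The rule gave 12 of the 4973 regions of the list. All 12 lay in the gene body and 0 in the flanks. The gene was picked by the number of regions in its body, so that number, its density and its rank are descriptions and carry no test.

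The list came from J1 mouse embryonic stem cells (strain labelled 12910la) of genotype Zscan4 overexpression. The coding region of Zscan4c had been placed in a FLAG vector with a CMV promoter, the cells were transfected with 1000 ng of plasmid and kept from 24 h on in 500 ug/ml G418 for 10 days, and single clones were then picked. Chromatin was precipitated with an anti-FLAG antibody, and the labels give 1 such library (OE_Zscan4) and 1 input library (OE_Input) of the same genotype, both without a replicate. The other 10 of the 12 labelled samples were not analysed here. The list gives a position and a score per region and no read counts, so the depth is unknown, and no input values were used. The labels do not say how many clones went into the library, and the data do not measure how the regions would vary between clones or libraries.

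Ulk4 encodes Unc-51-like kinase 4, a relative of the kinases Ulk1 and Ulk2 that start autophagy. It is classed as a pseudokinase, a protein with a kinase fold that lacks residues used in ordinary catalysis, and mice without it develop hydrocephalus with poorly working motile cilia in the lining of the brain ventricles. Zscan4c carries zinc fingers and a SCAN domain. It is made in the early embryo at the onset of the embryo's own transcription and, at any time, by few cultured embryonic stem cells, and it has been studied for its part in keeping telomeres long.

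Ulk4 is read from the minus strand, from high to low coordinates. The RefSeq promoter table (GRCm38.p6, the assembly of mm10) gave 1 start site, at position 121277172, which lies 8.99 kb inside the annotated span. The promoter held no listed region: the nearest edge of a region was 7.35 kb downstream of the start site. The sequence of that promoter is shown because distances in Ulk4 are counted from it, and that of Gm34735, a long non-coding RNA gene inside Ulk4, because its start site, of those in the gene and its flanks, was closest to a region, at 0.521 kb. Both are from RefSeq, 5′ to 3′ on the minus strand. In the first, capitals mark the 50 bases from the start site on, and in the second they mark each copy of the 10-base word TGAGGAGAGA.
Ulk4 promoter, chr9:121277123-121277422: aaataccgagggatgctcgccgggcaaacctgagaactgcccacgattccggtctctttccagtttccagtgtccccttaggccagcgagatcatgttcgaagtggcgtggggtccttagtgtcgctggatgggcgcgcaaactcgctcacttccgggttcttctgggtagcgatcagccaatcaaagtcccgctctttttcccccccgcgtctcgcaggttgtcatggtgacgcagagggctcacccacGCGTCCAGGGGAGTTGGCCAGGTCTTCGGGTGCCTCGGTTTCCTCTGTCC
Gm34735 promoter, chr9:121270297-121270596: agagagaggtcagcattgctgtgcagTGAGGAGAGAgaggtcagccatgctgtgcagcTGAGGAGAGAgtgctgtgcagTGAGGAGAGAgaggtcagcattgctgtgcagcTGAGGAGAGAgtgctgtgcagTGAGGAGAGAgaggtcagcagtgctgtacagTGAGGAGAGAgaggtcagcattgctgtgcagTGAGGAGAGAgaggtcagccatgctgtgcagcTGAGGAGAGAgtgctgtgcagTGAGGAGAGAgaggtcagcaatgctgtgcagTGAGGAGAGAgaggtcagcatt

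The promoters differ in kind. The Ulk4 promoter was GC-rich, with 60.0% G or C and 23 CpG dinucleotides, against medians of 52.7% and 7 over the 32851 promoters of the table, and none of its 291 words of 10 bases occurred more than once. The Gm34735 promoter held 0 CpG and was a tandem array: TGAGGAGAGA, its commonest word, occurred 10 times at steps of 21 to 32 bases, and its 291 positions held only 87 different words. Over the table, 15 promoters (0.0457%) held as few different words. The array was noticed after the sequence was seen. Neither promoter held TGCACAC, a motif known for Zscan4c, on either strand, nor a CA repeat of 6 units, which were present in 4.40% and 1.01% of all promoters. The sequences under the 12 regions themselves were not used here.

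The 12 regions were confined to the upstream side of the annotated body. From the first to the last they covered a stretch of 139 kb, or 43.2% of the gene, and the 167 kb next to its downstream end, 51.8% of it, held 0. Numbered in the direction of transcription, region 1 (121268951 to 121269825, 875 bp, score 54) had its midpoint 7.78 kb downstream of the start site and lay inside Gm34735. None of the other 11 overlapped a second annotated gene.

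Regions 2 to 10 formed a compact group between 38.2 and 53.8 kb downstream of the start site (121223409 to 121238961). They numbered 9 of 12 in 15.6 kb, which is 4.83% of the gene. Region 2 (121238333 to 121238961) was 629 bp wide with a score of 97. Region 3 (121234790 to 121236514), 1725 bp wide, was the widest in Ulk4 and had a score of 357. Region 4 (121232936 to 121233961) was 1026 bp wide with a score of 75. After the high score of region 3 near the upstream edge, the scores stayed at 120 or below through the middle of the group. Region 5 (121231951 to 121232603, 653 bp) had a score of 32, the lowest in Ulk4. Region 6 (121230272 to 121231341, 1070 bp) had a score of 35. Region 7 (121229663 to 121230044), at 382 bp the narrowest in Ulk4, had a score of 120. The score was lower again in region 8 and high in regions 9 and 10, at the downstream edge. Region 8 (121228211 to 121229007, 797 bp) had a score of 83. Region 9 (121226706 to 121227880, 1175 bp) had a score of 519, the highest in Ulk4. Region 10 (121223409 to 121225073, 1665 bp) closed the group with a score of 411.

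The remaining pair lay near the middle of the gene. Region 11 (121147429 to 121148376, 948 bp, score 92) followed 76.3 kb after region 10, midpoint to midpoint. Region 12 (121130991 to 121131942, 952 bp, score 413) came 16.4 kb later, at 146 kb from the start site. These 2 were nearly equal in width but not in score, and region 12 was the 1 region outside the group with a score in the range of regions 3, 9 and 10, while region 11 scored much like region 2. The exons and introns of Ulk4 were not analysed here.

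**Figure D1:**
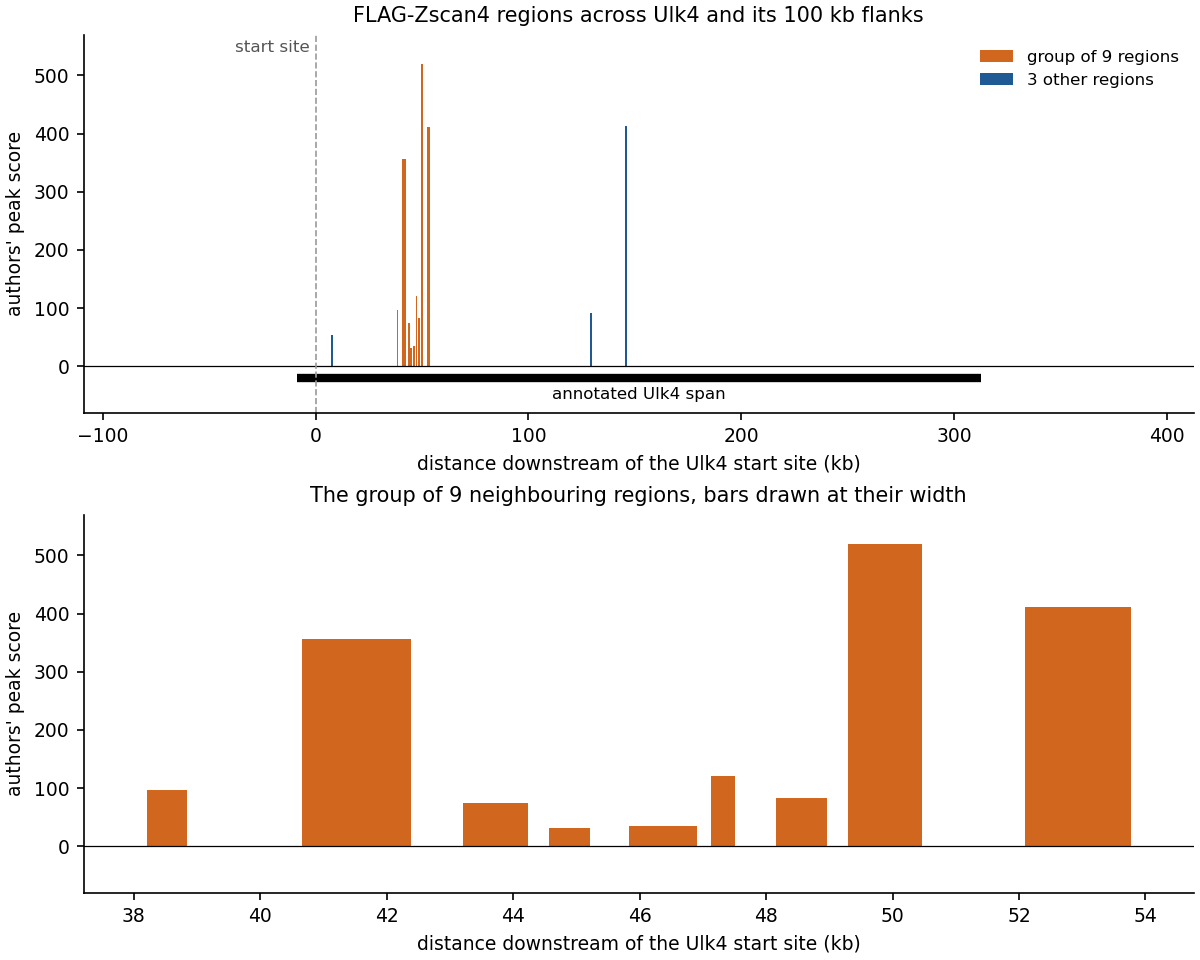
Authors' peak score (vertical axis) of the 12 FLAG-Zscan4 regions against distance downstream of the Ulk4 start site in kb, over the gene with its 100 kb flanks (upper panel) and over the group of 9 (lower panel); each bar is 1 region drawn at its width, orange for the group and blue for the other 3. All bars stand in the upstream part of the gene, none in the flanks, and within the group the scores of 357, 519 and 411 stand near its edges.

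The stretch around Ulk4 was otherwise empty of listed regions. On the low-coordinate side the next region (120142341 to 120142824, 484 bp, score 23) was 988 kb from region 12, edge to edge. On the high-coordinate side the next (122162233 to 122162549, 317 bp, score 29) was 892 kb from region 1. Gaps of that size were common on this chromosome, where 37 of the 231 gaps between neighbouring regions that both lay outside Ulk4 were longer than 988 kb, edge to edge. The authors number regions along each chromosome, and the 12 hold 4770 to 4781 with 4769 and 4782 on either side, so no number is skipped here.

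Density followed from this arrangement. Ulk4 had 3.73 regions per 100 kb (95% exact Poisson interval 1.93 to 6.52, for counting error only and with regions taken as independent), against 0.192 per 100 kb for the 233 regions on the rest of chromosome 9, a ratio of 19.4. Ulk4 was picked for this count and 9 of its regions are close neighbours, so the interval does not give the uncertainty of the density. It held 4.90% of the chromosome's 245 regions in 0.265% of its length. Within the group the density was 57.9 per 100 kb. When regions under 10 kb apart were merged the body held 4, and without the group it held 3.

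Spacing inside the group was short, with the longest steps at its edges. The 8 steps between neighbouring midpoints ran from 0.953 to 3.05 kb with a median of 1.39 kb. The unlisted gaps from edge to edge were 227 to 1818 bp with a median of 632 bp, and 6 of the 8 were under 1 kb. Elsewhere on the nuclear chromosomes 103 of 4895 gaps between neighbouring regions (2.10%) were under 1 kb. Those gaps were not selected for closeness. Ulk4 was picked for its count and the group was formed of close neighbours, so its short gaps partly follow from these choices. The 9 regions together filled 58.7% of the group's length. Over all 12 regions the median spacing was 2.20 kb, and 3 of the 11 spacings exceeded 10 kb, while between neighbours on the rest of chromosome 9 the median was 275 kb.

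Regions in Ulk4 were wide for this list. Their widths ran from 382 to 1725 bp with a median of 950 bp, against a median of 310 bp over the whole list and 308 bp on the rest of chromosome 9. Wider than the list's median were 12 of 12, where the list itself gives 49.8%, and wider than 800 bp were 8 of 12, where it gives 9.45%. Width did not set the group apart from the others, with a median of 1026 bp for the 9 and widths of 875, 948 and 952 bp for the remaining 3. Region 3 ranked 33 of 4973 by width and region 10 ranked 37, so the widest in Ulk4 were not the widest in the list.

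Scores were also mostly above those of the list, and fell into a high and a low set. The score is the authors' own, its scale is not stated, and it serves here only to rank regions. Its median in Ulk4 was 94.5 (interquartile range 69.8 to 371), against 33 over the list and 33 on the rest of chromosome 9. Above the list's median were 11 of 12 (49.4% of the list), all but region 5. At 300 or more were 4 of 12 (2.13% of the list), which were regions 3, 9, 10 and 12 with ranks of 88, 47, 72 and 71 of 4973. No region of Ulk4 had a score between 120 and 357. The limits of 800 bp and 300 were set after the values were seen, and these shares are descriptions of 1 library.

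Wider regions tended to have higher scores over the list, and the coefficient in Ulk4 was similar but rests on 12 regions. Spearman's rho between width and score was 0.38 over the 12 regions and 0.34 over all 4973, given without a test because all points share 1 library and regions of a group are neighbours. Region 6 was the fourth widest in Ulk4 and had its second lowest score, 35.

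**Figure D2:**
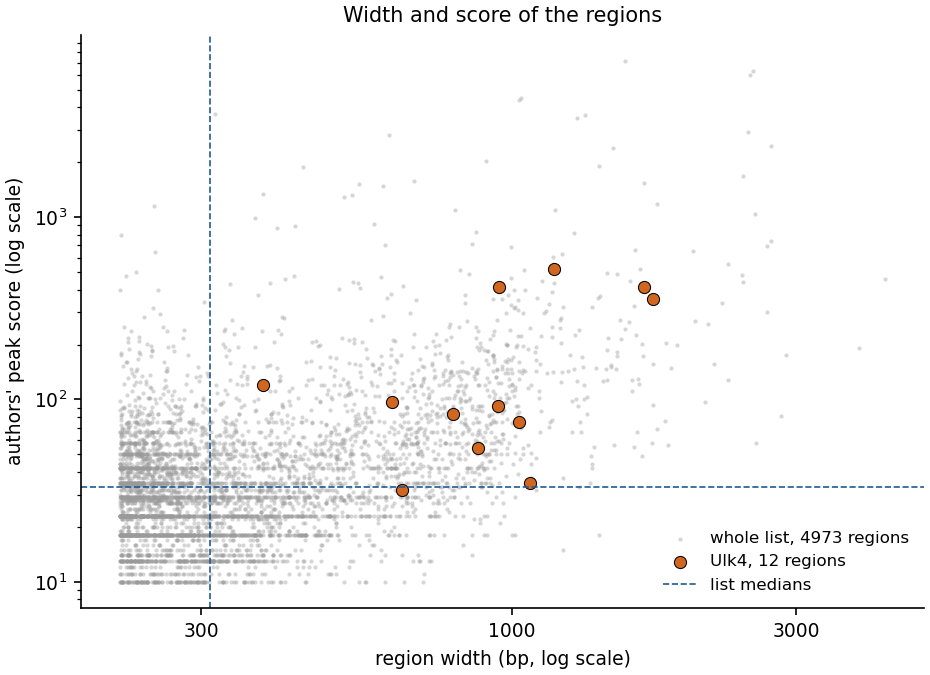
Score (vertical, log scale) against width in bp (horizontal, log scale) of each region, grey for the whole list of 4973 and orange for the 12 of Ulk4, with dashed lines at the list medians of 310 bp and 33. The Ulk4 regions all lie to the right of the median width and 11 lie above the median score, short of the extremes of the list.

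Groups of this size were rare. When regions with midpoints within 10 kb were chained, the list fell into 4536 groups, of which 4220 were single regions, 306 had 2 to 4 members and 10 had 5 or more. On the nuclear chromosomes 14.6% of regions had such a neighbour, and in Ulk4 9 of 12 did. A high share in Ulk4 follows in part from its choice as the gene with most regions. The Ulk4 group was the third by number. The first was a group of 19 over 44.8 kb on the unplaced scaffold JH584304.1, with a median width of 1328 bp and a median score of 1571. The second was a group of 10 over 32.4 kb on chromosome 8 (20362848 to 20395227), with a median width of 237 bp and a median score of 70. The Ulk4 group had wide members, at a median of 1026 bp, and a median score of 97. Groups of 5 on chromosome 2 (22002654 to 22006711) and chromosome 8 (20147515 to 20155114) were denser, at 1.23 and 0.658 regions per kb against 0.579. The scaffold group (64.7%) and a group of 5 on chromosome 8 (20696907 to 20706890, 72.4%) filled more of their length than that of Ulk4 (58.7%). A group of 6 on chromosome 9 (3009288 to 3024581) had a median width of 820 bp and a median score of 1316. Within any 20 kb, 9 regions were the most found anywhere, in Ulk4 and on JH584304.1, and chromosome 8 reached 7.

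**Figure D3:**
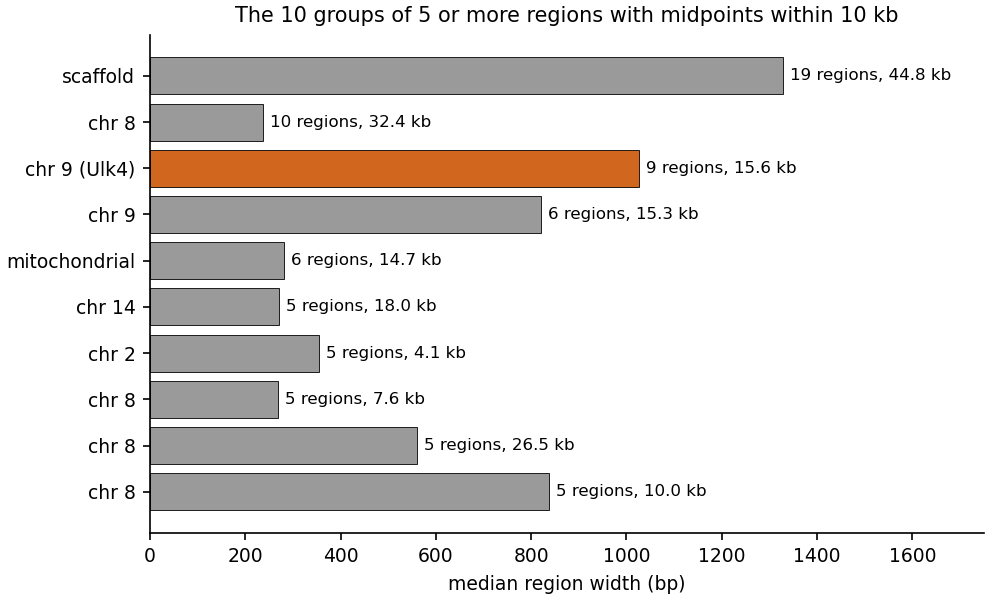
Median region width in bp (horizontal) of the 10 groups of 5 or more regions whose neighbouring midpoints lay within 10 kb, ordered by number of regions, with that number and the length of each group beside its bar. The Ulk4 group (orange) has 9 regions in 15.6 kb and a median width of 1026 bp, exceeded among these groups by the 1328 bp of the scaffold group.

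Genes of like span showed what a gene of this length usually holds. Like span means a protein-coding gene within 20% of the length of Ulk4, from 257 to 386 kb, and 320 genes met this, Ulk4 among them. In their bodies 207 had 0 regions, 69 had 1, 30 had 2, 8 had 3 and 3 had 4. At least 1 region was held by 35.3% of them and 3 or more by 4.38%, and the mean without Ulk4 was 0.564. Of the 15 like-span genes on chromosome 9, 4 had a region: Ulk4, Tmem108 with 2, and Itga9 and Dscaml1 with 1 each.

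**Figure D4:**
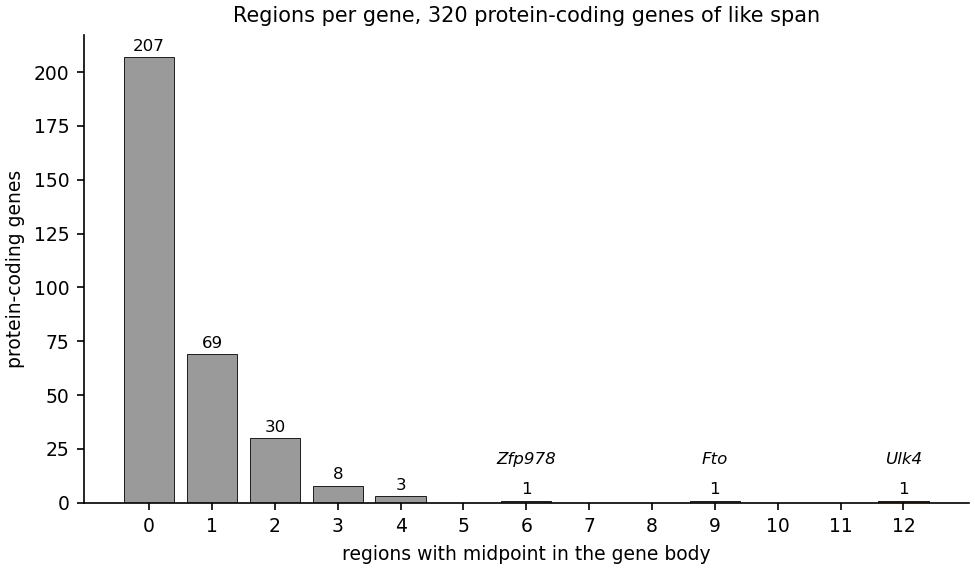
Number of protein-coding genes (vertical) by the number of FLAG-Zscan4 regions with midpoints in their bodies (horizontal), over the 320 genes with a span within 20% of that of Ulk4. Most genes stand at 0, and Zfp978 at 6, Fto at 9 and Ulk4 at 12 stand alone.

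The genes most like Ulk4 by this number had lower median widths and scores, though Zfp978 was not far below in score. Fto, the RNA demethylase gene, came next with 9 regions over 61.1% of its body, a median width of 361 bp and scores of at most 61. Zfp978, a zinc finger gene, had 6, with a median width of 493 bp, a median score of 81.5 (94.5 in Ulk4) and a highest score of 209. Thada, a gene first known from rearrangements in thyroid adenomas, Pitpnc1, which encodes a phosphatidylinositol transfer protein, and Ankrd44, which encodes an ankyrin repeat protein, had 4 each with highest scores of 74, 58 and 38. Thada had the lowest median spacing among them, at 2.55 kb, and 3 of its 4 lay within 20 kb. Fto also had up to 3 within 20 kb, with a lowest spacing of 1.03 kb and a median of 16.8 kb. No like-span gene other than Ulk4 had more than 3 regions within 20 kb.

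In median width and score, too, the Ulk4 regions stood above the pooled regions of the other genes, as a description without a test. Over the 180 regions in the bodies of the other like-span genes the median width was 314 bp and the median score 31. Of these, 8 were wider than 800 bp, as many as in Ulk4 alone, and 0 had a score of 300 or more, against 4 in Ulk4. Among the 13 other genes with 3 or more regions, the median width per gene ran from 236 to 493 bp and the median score from 23 to 81.5, below 950 bp and 94.5 in Ulk4. Some genes with fewer regions lay above Ulk4, with a median score of up to 194 or a median width of up to 1156 bp. Regions covered 3.70% of the Ulk4 body and at most 1.00% of any other like-span gene, which was Zfp978.

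**Figure D5:**
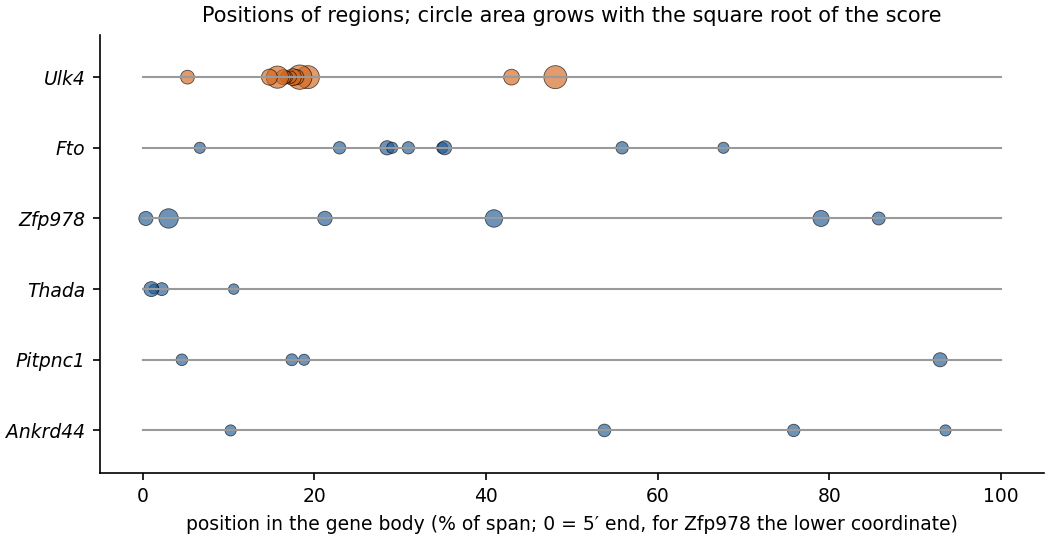
Position of each region in the bodies of Ulk4 (orange) and the 5 like-span genes that follow it in number of regions (blue), as percent of the span from the 5′ end (for Zfp978 from the lower coordinate, since its strand was not in the table); circle area grows with the square root of the score. The 12 Ulk4 regions lie in the first 48.1% of the body and 9 of them overlap one another at this scale. The 9 of Fto run from 6.65% to 67.7%, some of them close together.

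Rank by number depended on counting neighbours singly. Ulk4 was first of 320 with 12. After merging regions under 1 kb apart it had 6 and Fto 8, and after merging under 10 kb it had 4 and Fto 6, so that Fto led in both. Among the 1252 regions of highest score Ulk4 kept 9 and was first again, with Zfp978 next at 5.

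The protein-coding genes beside Ulk4 had no listed region. Ctnnb1, which encodes beta-catenin, the effector of Wnt signalling, lies 3.95 kb below the low-coordinate end of Ulk4 (120933400 to 120960507) and had 0 in its body and within 10 kb. Trak1, which encodes an adaptor for the transport of mitochondria, starts 11.3 kb above the other end (121297502 to 121474919) and likewise had 0. Of the 14 other genes that reach into the body or the flanks, 4 overlap Ulk4. These are the long non-coding RNA genes Gm34945 in its downstream part, Gm34735 and Gm34655, and the pseudogene Gm18229, and Gm34735 was the 1 with a region. Gm34655 starts 575 bp from the Ulk4 start site and is read away from it, and its nearest region edge was 7.92 kb away, that of region 1. The other 8 were Mir7090, inside Ctnnb1, and the long non-coding RNA genes Gm19385, Gm34425, Gm39460, Gm51664, 1700020M21Rik, 4930593C16Rik and Gm38502, all at 0. The nearest genes on chromosome 9 with a region in the body were Ccr8, a chemokine receptor gene at 870 kb on the low-coordinate side, and Snrk, a kinase gene at 831 kb on the other side, with 1 each.

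The relatives of Ulk4 were counted against all protein-coding genes. For this count a region had to lie in the gene or at most 10 kb from it, as held for 11.7% of the 21887 protein-coding genes. In the list for the ULK family and autophagy initiation, 1 of the 7 genes besides Ulk4 had a region, which was Atg13, a subunit of the Ulk1 complex, with 1 of score 28 outside its body. Ulk1, Ulk2, Ulk3, Stk36, Rb1cc1 and Atg101 had 0. Among 18 further pseudokinase genes 2 had a region, Ryk, a Wnt receptor, with 1 of score 35 in its body, and Vrk3 with 1 of score 213 nearby. Both shares are near that of all protein-coding genes, and the median over each list was 0, as over all of them.

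Genes of motile cilia and hydrocephalus gave 5 of 15, beside 11.7% of all protein-coding genes. The list had 16 genes, but Dnai1 was not found under that symbol in the annotation and was not counted. Hydin, mutated in a classic mouse model of hydrocephalus (1 region of score 25), Dnah5, a dynein heavy chain (score 42), Nme7 (score 74) and Cfap43 (score 29) had 1 region each in the body, and Ak7 had 1 of score 14 nearby. Their counts are not matched for length: the median span of the 15 was 78.6 kb, against 17.2 kb over all protein-coding genes. Of the 320 genes of like span to Ulk4, 35.3% had a region in the body. Hydin and Dnah5 are about as long as Ulk4, at 343 and 317 kb, and had 1 region each against its 12. Dnah11 and Spag17, of 321 and 258 kb, and the longer Spag16, of 898 kb, had 0.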

How the data were processed

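The region list was made by the authors from the anti-FLAG library; the build was mm10 and the tools included cutadapt, Bowtie2 and MACS2, per the submitters' processing notes. Their versions and thresholds, and whether the input served as control, were not given in the sources used here. Each region carries 1 score, a whole number, as the authors deposited it, on an unstated scale. Positions were deposited counted from 0 and are printed counted from 1. Places below the authors' threshold are not listed, so absence of a region does not show absence of binding.

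Regions were assigned to genes by midpoint, with gene spans and biotypes from a RefSeq table (GRCm38.p6; 21887 protein-coding genes on the nuclear chromosomes) and start sites and strands from the RefSeq promoter table (250 bases before to 50 from the start site on). Counting, merging and motif search were checked on simulated regions (Python 3.11.15, pandas 2.3.3, numpy 2.4.6, scipy 1.17.1). No test was run: there is 1 library, and Ulk4 was chosen for its number of regions. Alternatives were the 2510 and the 1252 regions with the highest scores, merging under 1 kb and 10 kb, overlap of 1 bp, other flanks and other definitions of like span. The gene, the lists and the rules were chosen with earlier results of these data known. Named genes were Ulk4, all genes in its body or flanks, the 5 like-span genes next in number of regions (ties by summed score), list members (those with a region described), and the nearest gene with a region on each side. Hydin, Dnah5, Dnah11, Spag17, Spag16 and the like-span genes of chromosome 9 are named again or in addition after their values were seen.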

Additional observations from a re-analysis of the deposited data

How the results depend on the processing

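Of 47 values under alternatives, 32 stayed within 1.5 times the main value (for the rank, at the same rank) and 15 moved. The 47 leave out density and the count with flanks for the setting without the group of 9. Both follow the body count, which moved there. The moves came from merging neighbours or leaving out the group of 9. With regions under 1 kb apart merged, the body and the body with its flanks each held 6 regions (1.87 per 100 kb), the median score was 254, the median spacing 16.4 kb and the rank 2. With regions under 10 kb apart merged, both held 4 (1.24 per 100 kb), the median score was 253, the median spacing 38.2 kb and the rank 2. A merged region keeps the highest score of its members, and merging removes short spacings by construction. Without the group, an alternative chosen after seeing the data, the body held 3 regions at a median spacing of 69.0 kb. The rank was then 6, shared with the 8 other like-span genes that had 3 regions. Each rank counts only the genes with more regions, so tied genes share it. The median width stayed between 948 and 952 bp in every setting. With merging, this was set by regions 11 and 12 (948 and 952 bp), while under 10 kb the group became 1 region of 15.6 kb. The stable median thus says nothing on the width of the group under merging. The rank was 1 under 8 of its 11 alternatives. No paired analysis was possible because the groups have 1 sample each and no test was run. The depth is unknown, and what it limits cannot be stated.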

Other observations

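A listed region stood near several promoters made up largely of repeated words, as that of Gm34735 is. This was looked at after the array in Gm34735 was seen. Of the 32851 promoters of the table, 32 (of 31 genes) held fewer than 150 different words of 10 bases out of 291. A region lay within 1 kb of the start site for 5 of the 32 (15.6%, 95% Wilson interval 6.86 to 31.8%), and for 4 of 31 (12.9%, 5.13 to 28.9%) without Gm34735. Of the 206 promoters with 150 to under 250 words, 3 had such a region (1.46%, 0.496 to 4.19%), and of the 22221 in which no word was repeated, 93 had one (0.419%, 0.342 to 0.512%). The share was 0.337% (35 of 10392, 0.242 to 0.468%) where 250 or more words were present and some were repeated, and it was 0.414% (136 of 32851) over all promoters. The 4 besides Gm34735 were the long non-coding RNA genes Gm52873 on chromosome 6 (100 words, more than the 87 of Gm34735; region 116238724 to 116239075, score 23), Gm46124 on chromosome 9 (84024600 to 84024950, score 23) and Gm46287 on chromosome 11 (72766002 to 72767098, score 143), and Asmt, the gene of the last enzyme of melatonin synthesis, on the X chromosome (170673272 to 170673501, score 111). The intervals cover counting error only, no test was run, and whether reads map uniquely in such arrays was not measured.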
